A study of Mus musculus with 17 samples.

Results

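The genes described here encode the machinery that shortens the poly(A) tail of mRNAs, removes the cap and degrades the body of the transcript. They were measured by mRNA sequencing of mouse brown adipose tissue, a fat that burns lipid to make heat. The 33 members were taken by gene symbol from a list: 9 subunits of the CCR4-NOT complex, PAN2-PAN3 and PARN (3 genes), the TOB and BTG adaptors (5), RNA-binding adaptors (4), decapping factors (7), 5′ exonucleases with UPF1 (3) and cytoplasmic poly(A)-binding proteins (2). All 33 symbols were found among the 21982 genes of the deposited count table. All 33 were also among the 12486 genes that passed the filter on low counts and were tested.

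The tissue came from 17 mice labelled C57BL/6, and each library is 1 mouse. Wild-type mice (Noc+/+) and homozygous knockout littermates of Nocturnin (Noct) were housed singly without food for 4 h at 22 °C or at 6 °C. Libraries carry the names of their labels: WR1 to WR4 are 4 wild types at 22 °C (3 female, 1 male), WC1 to WC5 are 5 wild types at 6 °C (4 female, 1 male), KR1 to KR4 are 4 knockouts at 22 °C and KC1 to KC4 are 4 knockouts at 6 °C (each 1 female, 3 male). The labels name no tissue for the deletion, so a loss of Noct in brown fat and a loss elsewhere in the body cannot be told apart. Labelled ages ran from 11.14 to 23.57 with no unit, and the series text gives 10 to 20 weeks. The questions addressed were how mRNA levels of the decay genes changed in the cold in each genotype, and whether they differed between genotypes. Nocturnin belongs to the CCR4 family of nucleases by sequence.

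Deadenylation opens the main route of cytoplasmic mRNA decay. PAN2-PAN3 trims long poly(A) tails and the CCR4-NOT complex removes the remainder, after which DCP2 with its cofactors hydrolyses the cap and XRN1 digests the transcript from the 5′ end. Adaptor proteins such as ZFP36 bind AU-rich elements of short-lived mRNAs, among them those of early response genes and cytokines, and bring the deadenylases to them.

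Promoter sequences are shown for the 3 genes that responded to cold and whose promoter held a searched motif, and for Btg2, whose promoter was the only one among the members with a complete cAMP response element, the site bound by CREB family factors. Promoters are the 250 bases upstream of the annotated start from RefSeq (GRCm38.p6), which held 27 of the 33 members. Cnot1, Cnot7, Dcp2, Lsm1, Pabpc1 and Zfp36l2 had no entry. Each is written 5′ to 3′ on the gene's own strand in lower case, with capitals for a match on either strand to 1 of 5 motifs: TGACGTCA (cAMP response element), TGACG (its half-element, which lies within the complete element), CATATTAGG (serum response element core), CACGTG (E-box) and GAANNTTC (heat shock element core). The Btg2 promoter (minus strand) is chr1:134079156-134079405, with the complete element beginning 166 bases upstream. The Cnot9 promoter (plus strand) is chr1:74505810-74506059, with a half-element at 91 bases. The Cnot4 promoter (minus strand) is chr6:35133738-35133987, with an E-box at 183 bases. The Parn promoter (minus strand) is chr16:13668171-13668420, with a heat shock element core at 120 bases and a half-element at 10 bases.
Btg2: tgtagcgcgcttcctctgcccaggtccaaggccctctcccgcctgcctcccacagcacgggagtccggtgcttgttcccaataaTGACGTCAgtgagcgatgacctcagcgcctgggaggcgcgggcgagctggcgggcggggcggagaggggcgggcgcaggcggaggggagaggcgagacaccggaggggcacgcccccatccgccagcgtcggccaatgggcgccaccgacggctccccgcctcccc
Cnot9: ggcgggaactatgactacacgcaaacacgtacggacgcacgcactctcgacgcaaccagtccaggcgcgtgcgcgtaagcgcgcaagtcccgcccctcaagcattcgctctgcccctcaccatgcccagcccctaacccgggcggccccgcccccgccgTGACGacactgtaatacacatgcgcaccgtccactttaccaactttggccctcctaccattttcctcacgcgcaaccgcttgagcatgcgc
Cnot4: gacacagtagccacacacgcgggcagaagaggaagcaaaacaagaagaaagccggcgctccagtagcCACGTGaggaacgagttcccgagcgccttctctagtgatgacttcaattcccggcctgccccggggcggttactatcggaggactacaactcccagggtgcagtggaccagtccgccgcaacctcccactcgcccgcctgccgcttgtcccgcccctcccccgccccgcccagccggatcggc
Parn: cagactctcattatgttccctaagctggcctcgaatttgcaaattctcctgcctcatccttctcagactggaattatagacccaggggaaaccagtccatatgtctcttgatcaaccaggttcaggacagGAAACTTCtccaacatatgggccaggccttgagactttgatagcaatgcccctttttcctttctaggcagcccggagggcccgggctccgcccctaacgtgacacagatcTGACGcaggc
Of the 27 members, 8 held the half-element in a promoter (29.6%: Btg1, Btg2, Cnot3, Cnot8, Cnot9, Pan2, Parn and Tob1). The share was 17.8% over all 32851 promoters of the same length, counted singly. These shares are in unlike units, since a member with several promoters, such as Cnot8, was counted if any of them matched. The complete element was in 1.55% of all promoters, the E-box in 6.02%, the heat shock core in 6.69% and the serum response core in 0.107%, the last in 0 of the 27. Among the 12 members that changed in wild-type mice in the cold, Cnot9, Cnot4 and Parn held a match. Cnot1, Dcp2 and Lsm1 of these 12 had no promoter to search. A match is a description of these letters only.

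Library totals ran from 18410748 to 47598200 counts, and 43.4 to 57.3% of each library came from mitochondrially encoded genes. Levels are in CPM, read counts relative to a library total scaled by the trimmed mean of M-values, and fold changes are log2 ± SE from 1 edgeR quasi-likelihood model of all 17 libraries with labelled sex as a covariate. "Rose" and "fell" are used where the p of this model, adjusted by Benjamini-Hochberg across all 12486 genes tested, was below 0.05. The targeted gene, Noct, stood at 91.5 to 176 CPM in WR, 238 to 457 in WC, 3.37 to 34.2 in KR and 18.2 to 27.2 in KC, so no knockout library reached a wild-type one. All 13 brown adipocyte markers were detected, with a summed level of 11253 to 12653 CPM in WR, 15417 to 19646 in WC, 11086 to 14711 in KR and 14969 to 19370 in KC. Of these markers, 5 rose and 2 fell in wild-type mice in the cold and 4 rose in knockouts. Skeletal muscle markers (13 of 13 tested) summed to 58.1 to 782 CPM in WR, 94.1 to 997 in WC, 78.2 to 973 in KR and 66.7 to 1218 in KC, with 0 called in either genotype by edgeR and 0 at an unadjusted p below 0.05 in wild type. Macrophage markers (10 genes) summed to 53.7 to 106 CPM over the 17 libraries, endothelial markers (10 genes) to 360 to 574 and fibroblast markers (8 genes) to 212 to 320, and no listed marker was at 0 in every library of a group. In the cold, 1 macrophage marker rose in each genotype, with a positive log2 change for 4 of 10 in wild type (median -0.10) and for 9 of 10 in knockout (median 0.38, 4 of 10 at an unadjusted p below 0.05). Of the endothelial markers 2 rose in each genotype, and 2 fell in wild type and 1 in knockout. The part of these cell types in the results was not tested. WR2 stood apart from the other WR libraries in Ppargc1a, a cold-responsive coactivator gene, at 493 CPM against 92.4 to 116.

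Among members, transcript levels per length spanned a wide range, as the plot of RPKM by library shows. The mean RPKM over the 17 libraries was highest for Tob1 (90.9), followed by Pabpc1 (48.9), Tob2 (38.6) and Zfp36l2 (20.9). It was lowest for Btg3 (0.199, from 2 to 14 counts per library) and Dcp1b (0.451). Animals of a group varied most in Zfp36l2 (within-group SD of log2 CPM 0.569), Btg2 (0.489) and Zfp36 (0.386), and least in Cnot1 (0.0937) and Cnot8 (0.0986). The median within-group SD was 0.182 over members and 0.227 over all tested genes, whose median level was lower (9.59 against 20.0 CPM).

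**Figure D1:**
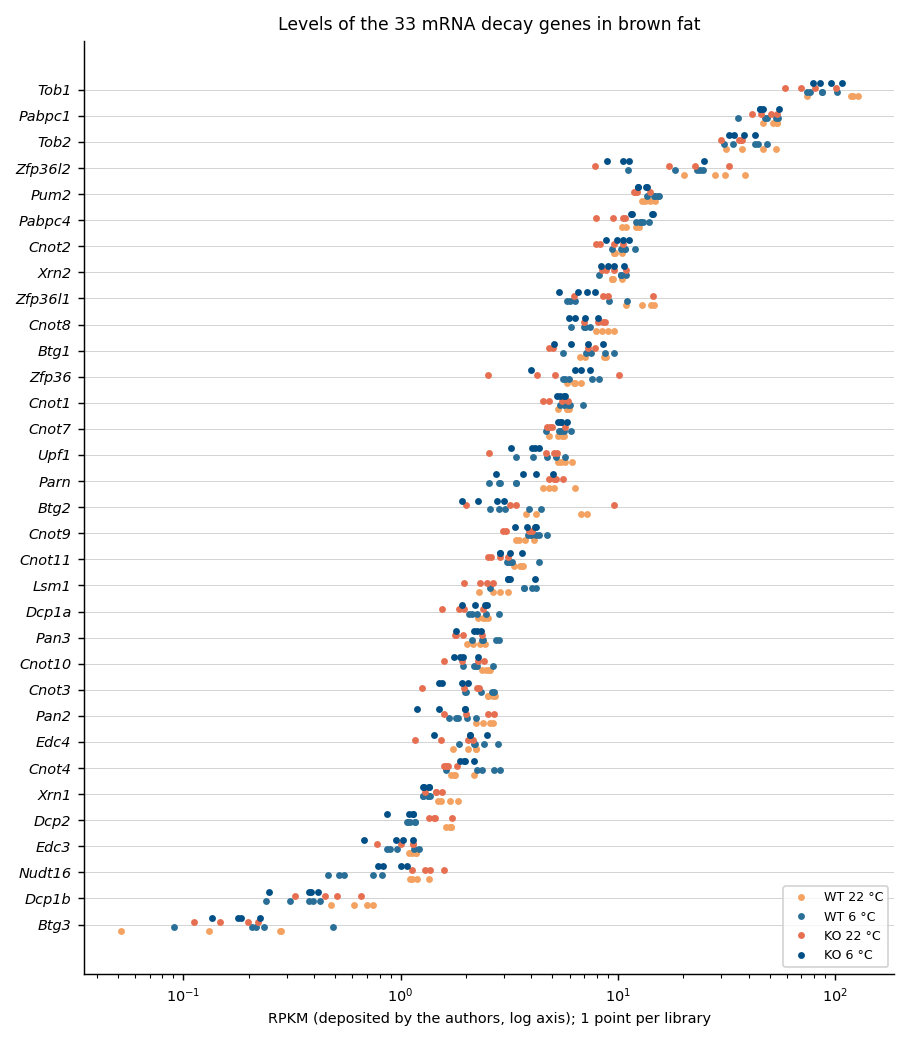
RPKM (reads scaled to gene length and library total, log axis) of the 33 genes, ordered by mean RPKM, with 1 point per library coloured by group. Tob1 lay near 90.9 on average and Btg3 near 0.199, and within most genes the 4 groups overlap.

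In wild-type mice 12 of the 33 members changed after 4 h at 6 °C: 7 rose and 5 fell. The genes that rose were 3 CCR4-NOT subunits (Cnot1, Cnot4, Cnot9), Pan3, Pum2, Lsm1 and Pabpc4. The genes that fell were Parn, Zfp36l1 and 3 decapping genes (Dcp1b, Dcp2, Nudt16). The background was 27.6% of all tested genes called (14.3% higher, 13.3% lower), against 36.4% of members, whose log2 changes ran from -0.75 to 0.63. The count rested on single libraries: 6 members and 2605 genes in all were called without WR4, in place of 12 and 3450, while 7 members were called without WR1 or without WC3 and 14 without WC4. The median log2 change was 0.13 over members and -0.03 over all tested genes. WR and WC did not overlap for 8 members (Cnot9, Pabpc4, Pum2 and Edc4 higher, Nudt16, Parn, Dcp2 and Dcp1b lower), 24.2% of members against 25.8% of all tested genes. In tissue RNA, fewer cells of a type and less RNA per cell cannot be told apart.

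Scaling to library totals in place of the trimmed mean lowered the median log2 change of all genes in wild type by 0.20, from -0.03 to -0.23, and took the share of calls that were higher from 51.8 to 23.0%. Under it Lsm1 alone of the 7 risen members still passed and 8 members were called lower, the 5 above with Cnot8, Btg2 and Xrn1. Measured against the median of all genes under each scaling, the log2 change moved by at most 0.013 among the 19 members that passed in at least 1 fit in wild type, and by at most 0.016 among the 9 that did so in knockout. A rise or fall named here is therefore relative to the bulk of measured genes.

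Of the CCR4-NOT genes, Cnot9 encodes the subunit that docks adaptor proteins and lies at chr1:74506058-74530842 (GRCm38, plus strand). It was at 11.4, 14.4, 13.002 and 11.8 CPM in WR1 to WR4 and at 16.8, 17.4, 17.1, 14.8 and 17.1 CPM in WC1 to WC5. Every cold library was above every library at 22 °C, and WC4 was the lowest of the cold ones. The change was 0.40 ± 0.10 (adjusted p 0.00719, edgeR), and it did not pass with library totals (0.20, adjusted p 0.222). Exons of Cnot9 overlap those of Usp37 on the other strand (Usp37 0.35 ± 0.15, adjusted p 0.0951), and without a stated strand setting reads of the overlap cannot be told apart. Knockouts had 14.2, 11.5, 14.6 and 13.6 CPM in KR1 to KR4 and 15.003, 16.8, 15.4 and 15.99 CPM in KC1 to KC4. Here too the groups did not overlap, and the change was 0.23 ± 0.11 (adjusted p 0.137).

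Cnot4 encodes the E3 ubiquitin ligase associated with the complex and lies at chr6:35022065-35133724 (minus strand). Its levels were 15.2, 19.6, 15.5 and 14.8 CPM in WR1 to WR4 and 29.3, 22.9, 29.6, 15.8 and 21.8 CPM in WC1 to WC5. WC4 lay within the range at 22 °C, and the other 4 cold libraries were above it. Cnot4 rose by 0.56 ± 0.16 (adjusted p 0.0159, edgeR), a rise that did not pass with library totals (0.34, adjusted p 0.0687). In knockouts it stood at 16.9, 15.7, 15.1 and 18.8 CPM in KR1 to KR4 and 19.9, 19.4, 25.5 and 19.04 CPM in KC1 to KC4, and the change was 0.34 ± 0.17 (adjusted p 0.173). Each cold knockout library exceeded each at 22 °C.

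Cnot1 encodes the scaffold of the complex. It was at 79.3, 93.9, 90.7 and 88.3 CPM in WR1 to WR4 and 105, 107, 109, 92.9 and 111 CPM in WC1 to WC5, with only WC4 inside the range at 22 °C. The rise was small, 0.26 ± 0.09 (adjusted p 0.0349, edgeR). With 1 library left out at a time, it no longer passed without WR1, WR3, WR4, WC1, WC2, WC3 or WC5 (adjusted p 0.0510 to 0.104), nor did it with no filter on low counts (adjusted p 0.0600). "Without" is used in this sense for the libraries named from here on. In knockouts, Cnot1 was at 95.8, 84.1, 89.9 and 90.6 CPM in KR1 to KR4 and 95.3, 103, 108 and 96.5 CPM in KC1 to KC4, a change of 0.16 ± 0.09 (adjusted p 0.238) with 1 cold library inside the range at 22 °C. The catalytic subunits among the members did not pass: the log2 change in wild type was 0.25 ± 0.11 for Cnot7 (adjusted p 0.102) and -0.14 ± 0.09 for Cnot8 (adjusted p 0.272). The CCR4-type nucleases are not members and were read from a separate list. Cnot7 did pass without WC4 (adjusted p 0.0411). Cnot2, a subunit of the NOT module, had a change of 0.33 ± 0.13 (adjusted p 0.0619) and passed without WC4, KR3 or KR4 (adjusted p 0.0366 to 0.0493), with DESeq2 (adjusted p 0.0425) and with the wild-type groups fitted alone (adjusted p 0.0280). Its NOT module partner Cnot3 had 0.03 ± 0.13 (adjusted p 0.895), and Cnot10 and Cnot11, which form a module of their own, had 0.05 ± 0.11 and 0.13 ± 0.10 (adjusted p 0.762 and 0.345). Of the 9 subunits, 8 had a positive log2 change in wild type (median 0.25) and 7 in knockout (median 0.19). Over all 12486 tested genes, 5907 were positive in wild type and 5876 in knockout. These signs depend on the scaling, as described above. In knockout 0 of the 9 subunits passed by edgeR (2 at an unadjusted p below 0.05, against 33.8% of all tested genes).

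Of the PAN2-PAN3 and PARN genes, Parn fell and Pan3 rose in wild type, while Pan2, the nuclease partner of Pan3, did not pass. Parn encodes poly(A)-specific ribonuclease, which also trims the ends of non-coding RNAs, and lies at chr16:13537960-13668170 (minus strand). Its levels were 11.5, 12.7, 16.7 and 13.01 CPM in WR1 to WR4 and 7.71, 8.68, 9.27, 9.79 and 9.28 CPM in WC1 to WC5. Every cold library was below every one at 22 °C, and Parn fell (-0.59 ± 0.13, adjusted p 0.00346, edgeR) under all 27 alternatives tried. In knockouts it was at 15.4, 15.01, 14.4 and 16.2 CPM in KR1 to KR4 and 10.9, 12.9, 9.57 and 14.5 CPM in KC1 to KC4, with only KC4 inside the range at 22 °C. The knockout change was -0.35 ± 0.14 (adjusted p 0.0857), and it passed without KC4 (adjusted p 0.0370).

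Pan3 encodes the subunit that tethers PAN2 to poly(A)-bound mRNA. It stood at 30.4, 33.4, 29.1 and 26.6 CPM in WR1 to WR4 and 37.5, 42.7, 39.8, 31.7 and 40.2 CPM in WC1 to WC5, with WC4 inside the range at 22 °C. Pan3 rose by 0.36 ± 0.13 (adjusted p 0.0392, edgeR). The rise no longer passed without WR1, WR3, WR4, WC1, WC2, WC3 or WC5 (adjusted p 0.0602 to 0.113). Its partner Pan2, the nuclease, was at 19.03, 17.2, 20.5 and 18.003 CPM in WR1 to WR4 and 19.7, 16.3, 15.9, 15.1 and 16.2 CPM in WC1 to WC5, groups that overlapped (-0.18 ± 0.12, adjusted p 0.278). In knockouts Pan3 was at 33.6, 29.5, 25.2 and 31.5 CPM in KR1 to KR4 and 36.2, 34.2, 40.4 and 26.8 CPM in KC1 to KC4 (0.20 ± 0.13, adjusted p 0.316). Pan2 in knockouts was at 21.7, 17.1, 20.4 and 15.7 CPM in KR1 to KR4 and 17.3, 13.4, 12.1 and 16.7 CPM in KC1 to KC4 (-0.33 ± 0.12, adjusted p 0.0658), and it passed without KR4 or KC4 (adjusted p 0.0376 to 0.0379) and with sex and labelled age as covariates (adjusted p 0.0359). In both genotypes the temperatures overlapped for both genes. For Pan3, WC4 and KC4 were the only cold libraries not above every library of their genotype at 22 °C. For Pan2, WC1 was the only WC library not below every WR library, while KC1 and KC4 lay within the KR range.

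Decapping genes held both directions. Lsm1 encodes a subunit of the LSM1-7 ring, which binds deadenylated 3′ ends and promotes decapping, and lies at chr8:25785288-25803975 (plus strand). It was at 6.18, 8.83, 7.47 and 7.85 CPM in WR1 to WR4 and 12.97, 13.6, 12.9, 7.93 and 10.8 CPM in WC1 to WC5. WC4 lay within the range at 22 °C and the other 4 cold libraries lay above it. Lsm1 rose by 0.63 ± 0.14 (adjusted p 0.00384, edgeR), the largest rise among the members called in wild type. In knockouts it was at 6.81, 7.86, 7.79 and 7.08 CPM in KR1 to KR4 and 9.99, 13.5, 11.8 and 9.59 CPM in KC1 to KC4, with no overlap. It rose there by 0.60 ± 0.15 (adjusted p 0.00880), and both rises passed under all 27 alternatives.

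Nudt16 encodes a Nudix hydrolase with decapping activity and lies at chr9:105128903-105131824 (minus strand). Its levels were 2.69, 2.69, 2.60 and 3.09 CPM in WR1 to WR4 and 1.25, 1.49, 1.51, 2.11 and 1.82 CPM in WC1 to WC5. The groups did not overlap, and Nudt16 fell by more than any other member called in wild type, with a log2 change of -0.75 ± 0.16 (adjusted p 0.00315, edgeR), under all 27 alternatives. Knockout libraries had 3.88, 3.59, 3.17 and 3.41 CPM in KR1 to KR4 and 2.21, 2.94, 2.46 and 2.59 CPM in KC1 to KC4. They did not overlap either, with a change of -0.46 ± 0.17 (adjusted p 0.0624).

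Dcp2, the gene of the decapping enzyme, was at 12.9, 12.8, 13.4 and 13.1 CPM in WR1 to WR4 and 10.6, 9.76, 10.6, 9.62 and 9.57 CPM in WC1 to WC5. The WR libraries differed little among themselves and all lay above the cold ones. Dcp2 fell in wild type (-0.39 ± 0.12, adjusted p 0.0227, edgeR) but did not pass without WR2, WR3, WR4 or WC5 (adjusted p 0.0512 to 0.0595). Knockouts had 14.2, 12.7, 11.2 and 14.4 CPM in KR1 to KR4 and 10.3, 10.1, 11.9 and 7.45 CPM in KC1 to KC4, where KC3 lay within the range at 22 °C. The log2 change there was -0.41 ± 0.13 (adjusted p 0.0281), and it did not pass when the 2 knockout groups were fitted alone (adjusted p 0.147) or without KR1, KR2, KR4, KC1, KC2 or KC4 (adjusted p 0.0550 to 0.0948).

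The cofactor paralogs Dcp1a and Dcp1b had log2 changes of opposite sign. Dcp1b was at 4.16, 2.77, 3.51 and 3.91 CPM in WR1 to WR4 and 1.59, 2.51, 2.21, 2.70 and 2.37 CPM in WC1 to WC5, without overlap, and fell (-0.64 ± 0.20, adjusted p 0.0247, edgeR). The fall did not pass without WR1, WR4, WC1 or WC3 (adjusted p 0.0518 to 0.0765). Dcp1a was at 11.2, 12.98, 12.1 and 12.1 CPM in WR1 to WR4 and 13.2, 14.5, 13.04, 11.97 and 15.1 CPM in WC1 to WC5, which overlapped (0.17 ± 0.10, adjusted p 0.222). In knockouts Dcp1b was at 3.04, 2.89, 3.93 and 2.41 CPM in KR1 to KR4 and 2.47, 1.66, 2.93 and 2.63 CPM in KC1 to KC4, with overlap (-0.34 ± 0.22, adjusted p 0.287). Dcp1a in knockouts was at 10.5, 10.5, 12.8 and 10.1 CPM in KR1 to KR4 and 14.1, 13.03, 12.9 and 13.9 CPM in KC1 to KC4, where every cold library was higher (0.30 ± 0.11, adjusted p 0.0514). It passed without WR1, WR2, WC3, WC4, WC5 or KR3 (adjusted p 0.0222 to 0.0482), and also with DESeq2 size factors, with DESeq2 and without the sex term (adjusted p 0.0257 to 0.0457). The enhancers of decapping Edc3 (0.03 ± 0.12, adjusted p 0.875) and Edc4 (0.34 ± 0.14, adjusted p 0.0865) did not pass in wild type, although each WC library of Edc4 was above each WR library. Edc4 passed with sex and labelled age as covariates (adjusted p 0.0434) and with the wild-type groups fitted alone (adjusted p 0.0358). In knockouts they had -0.03 ± 0.13 and 0.31 ± 0.15 (adjusted p 0.916 and 0.162).

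**Figure D2:**
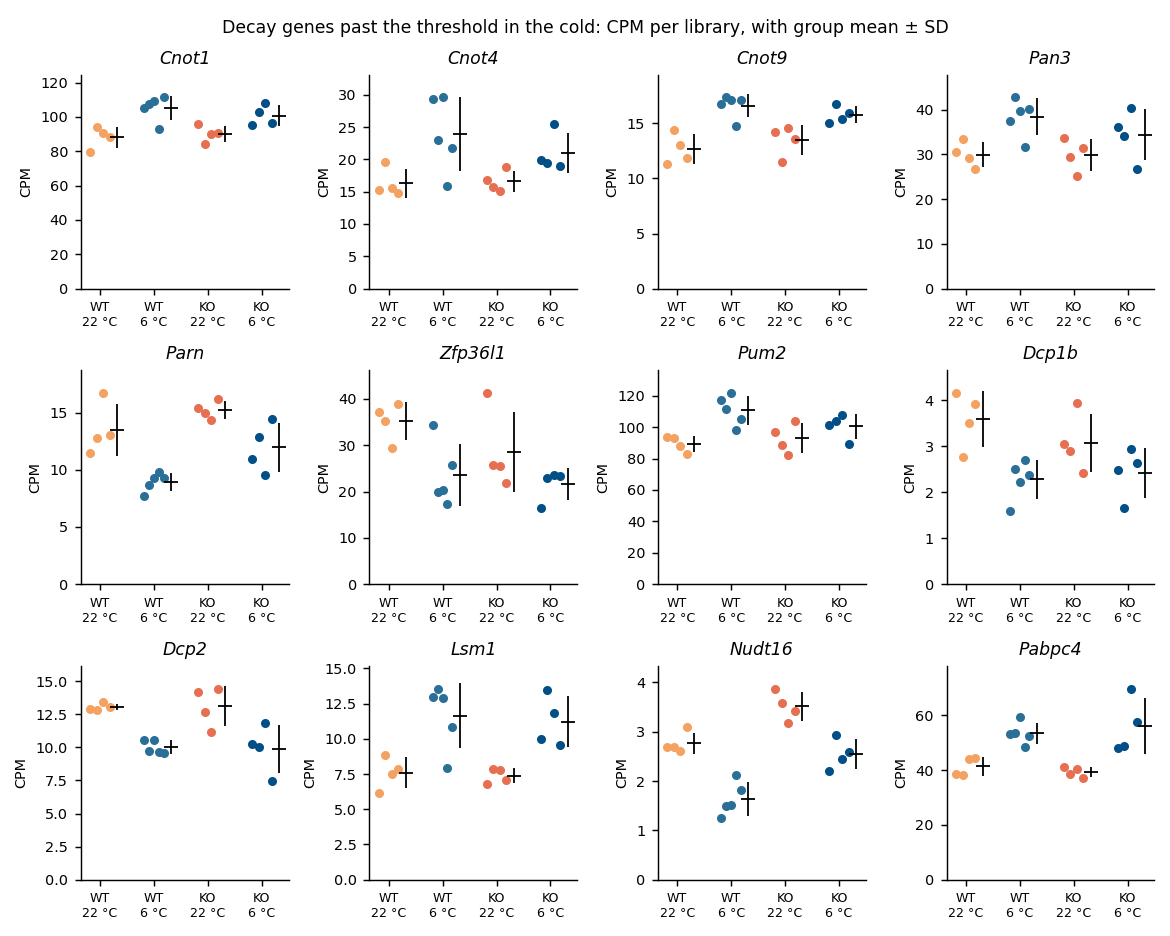
CPM of the 12 genes called in wild type in the cold, with 1 point per library, the 4 groups on the x axis, and bars for the mean and SD. Lsm1 and Pabpc4 are higher at 6 °C in both genotypes, Dcp2 is lower in both, and WC4 is the lowest WC point for each of the 7 genes that rose.

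Both poly(A)-binding protein genes were well expressed. Pabpc4, which encodes the inducible cytoplasmic form, lies at chr4:123262351-123298925 (plus strand) and was at 38.5, 38.4, 44.3 and 44.6 CPM in WR1 to WR4 and 53.1, 53.7, 59.3, 48.5 and 52.6 CPM in WC1 to WC5. Every cold library was above every one at 22 °C. The rise was 0.37 ± 0.11 (adjusted p 0.0201, edgeR), and it did not pass with library totals (0.16, adjusted p 0.263) or without WR1 or WR2 (adjusted p 0.0538 to 0.0599). In knockouts Pabpc4 was at 41.1, 38.6, 40.6 and 37.3 CPM in KR1 to KR4 and 47.98, 49.03, 69.8 and 57.7 CPM in KC1 to KC4, again without overlap. It rose by 0.51 ± 0.12 (adjusted p 0.00491) under all 27 alternatives. Pabpc1, the main form, was at 234, 275, 283 and 275 CPM in WR1 to WR4 and 322, 328, 309.7, 205 and 264 CPM in WC1 to WC5, and the groups overlapped. Its change was 0.10 ± 0.14 in wild type (adjusted p 0.623) and 0.09 ± 0.15 in knockout (adjusted p 0.740), where it stood at 296, 297, 250.05 and 278 CPM in KR1 to KR4 and 268, 285, 381 and 259 CPM in KC1 to KC4.

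Of the adaptors that bind RNA, Zfp36l1 fell and Pum2 rose in wild type. Zfp36l1 encodes an AU-rich element binding protein. It was at 37.1, 35.3, 29.5 and 38.96 CPM in WR1 to WR4 and 34.4, 19.9, 20.4, 17.4 and 25.7 CPM in WC1 to WC5, where WC1 lay within the range at 22 °C. The change was -0.60 ± 0.19 (adjusted p 0.0296, edgeR), and it did not pass without WR1, WR2, WR4, WC2, WC3 or WC4 (adjusted p 0.0630 to 0.0861). Knockouts had 41.3, 25.8, 25.6 and 21.8 CPM in KR1 to KR4 and 16.4, 22.9, 23.5 and 23.4 CPM in KC1 to KC4, with a change of -0.38 ± 0.21 (adjusted p 0.210). Pum2, whose product binds Pumilio elements, was at 93.98, 93.2, 87.7 and 82.7 CPM in WR1 to WR4 and 117, 112, 122, 98.5 and 105 CPM in WC1 to WC5, without overlap. It rose by 0.31 ± 0.10 (adjusted p 0.0263), and the rise did not pass without WR3, WR4, WC1, WC2 or WC3 (adjusted p 0.0558 to 0.0763). In knockouts Pum2 was at 96.7, 88.5, 82.1 and 104 CPM in KR1 to KR4 and 101, 104, 107 and 89.4 CPM in KC1 to KC4, groups that overlapped (0.11 ± 0.10, adjusted p 0.482).

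The paralogs of Zfp36l1 varied widely between animals. Zfp36, the founding member of the family, was at 19.2, 21.5, 18.3 and 19.6 CPM in WR1 to WR4 and 29.6, 20.4, 22.2, 20.5 and 24.9 CPM in WC1 to WC5. It was at 33.3, 14.9, 16.9 and 10.2 CPM in KR1 to KR4 and 24.1, 27.3, 16.5 and 21.96 CPM in KC1 to KC4, with KR1 the highest of all 17. Its change was 0.22 ± 0.22 in wild type (adjusted p 0.484) and 0.31 ± 0.23 in knockout (adjusted p 0.375). Without KR1 (adjusted p 0.0229) it passed in knockout, with a change of 0.69. Zfp36l2 was at 119, 65.4, 99.1 and 87.5 CPM in WR1 to WR4 and 88.2, 85.6, 72.6, 39.1 and 81.7 CPM in WC1 to WC5, and at 57.5, 117, 75.6 and 32.4 CPM in KR1 to KR4 and 91.02, 39.4, 37.6 and 39.4 CPM in KC1 to KC4. Its groups overlapped at both genotypes (-0.32 ± 0.32, adjusted p 0.495, and -0.52 ± 0.35, adjusted p 0.324).

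The TOB and BTG adaptors, antiproliferative proteins that bind the CAF1 deadenylase subunits, gave 0 calls in either genotype by edgeR (1 of 5 in wild type and 2 of 5 in knockout at an unadjusted p below 0.05, against 39.6% and 33.8% of all tested genes). Tob1, the member with the highest RPKM, averaged 225 ± 47.7 CPM (SD, n = 4) in WR, 202 ± 30.9 (n = 5) in WC, 178 ± 30.7 (n = 4) in KR and 224 ± 30.03 (n = 4) in KC. Its change was -0.16 ± 0.15 in wild type (adjusted p 0.458) and 0.35 ± 0.16 in knockout (adjusted p 0.125), and without KC1 (adjusted p 0.0164) it passed in knockout, with a change of 0.53. Btg2 was at 17.4, 10.5, 9.37 and 16.5 CPM in WR1 to WR4, 12.6, 7.41, 9.31, 7.74 and 10.1 in WC1 to WC5, 24.9, 9.46, 8.29 and 6.37 in KR1 to KR4 and 7.82, 8.70, 6.30 and 6.20 in KC1 to KC4. The groups overlapped, and the change was -0.55 ± 0.24 in wild type (adjusted p 0.103) and -0.62 ± 0.26 in knockout (adjusted p 0.107). The values rested on single libraries: Btg2 passed in wild type without WR3 (adjusted p 0.0425) and in knockout without KR4 (adjusted p 0.0414), while without KR1, its highest library, the knockout change was -0.21 (adjusted p 0.577). Tob2, Btg1 and Btg3 had changes of 0.13 ± 0.16, 0.19 ± 0.19 and 0.54 ± 0.49 in wild type and 0.15 ± 0.17, 0.19 ± 0.20 and 0.14 ± 0.54 in knockout, none past the threshold.

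The exonuclease genes Xrn1 (-0.11 ± 0.10) and Xrn2 (0.25 ± 0.11) and the helicase gene Upf1 (-0.11 ± 0.14) did not pass in wild type, with adjusted p of 0.420, 0.0919 and 0.610. In knockouts they had -0.06 ± 0.10, 0.05 ± 0.11 and -0.07 ± 0.15, and their groups overlapped in both genotypes. Xrn2, the nuclear form, passed without WC4 (adjusted p 0.0233).

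WC4 was the lowest WC library for all 7 risen members and for 21 of the 33 members. Without it, 14 members were called in wild type (10 higher, 4 lower).

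In knockout mice 3 of the 33 members changed in the cold: Pabpc4 and Lsm1 rose and Dcp2 fell. The background was 21.6% of all tested genes called, against 9.09% of members, and the median log2 change was 0.11 over members and -0.02 over all genes. KR and KC did not overlap for 7 members (Pabpc4, Lsm1, Dcp1a, Cnot11, Cnot9 and Cnot4 higher, Nudt16 lower), 21.2% of members against 20.2% of all tested genes. These 3 were also called in wild type. All 12 members called in wild type had a change of the same sign in knockout, and for 10 of them its size was smaller there. These 12 were picked by their wild-type call, and the matching shares over all genes called in wild type were not computed. The difference between the cold responses was tested for every gene. By edgeR it passed for 0 members (1 at an unadjusted p below 0.05) and DESeq2 called 0, against a background of 0.00801% of all tested genes. The differences ran from -0.40 to 0.51 on the log2 scale, with SE from 0.13 to 0.73. The member under an unadjusted p of 0.05 was Tob1 (0.51 ± 0.21 as knockout minus wild type, p 0.0302, adjusted p 0.9997, edgeR).

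**Figure D3:**
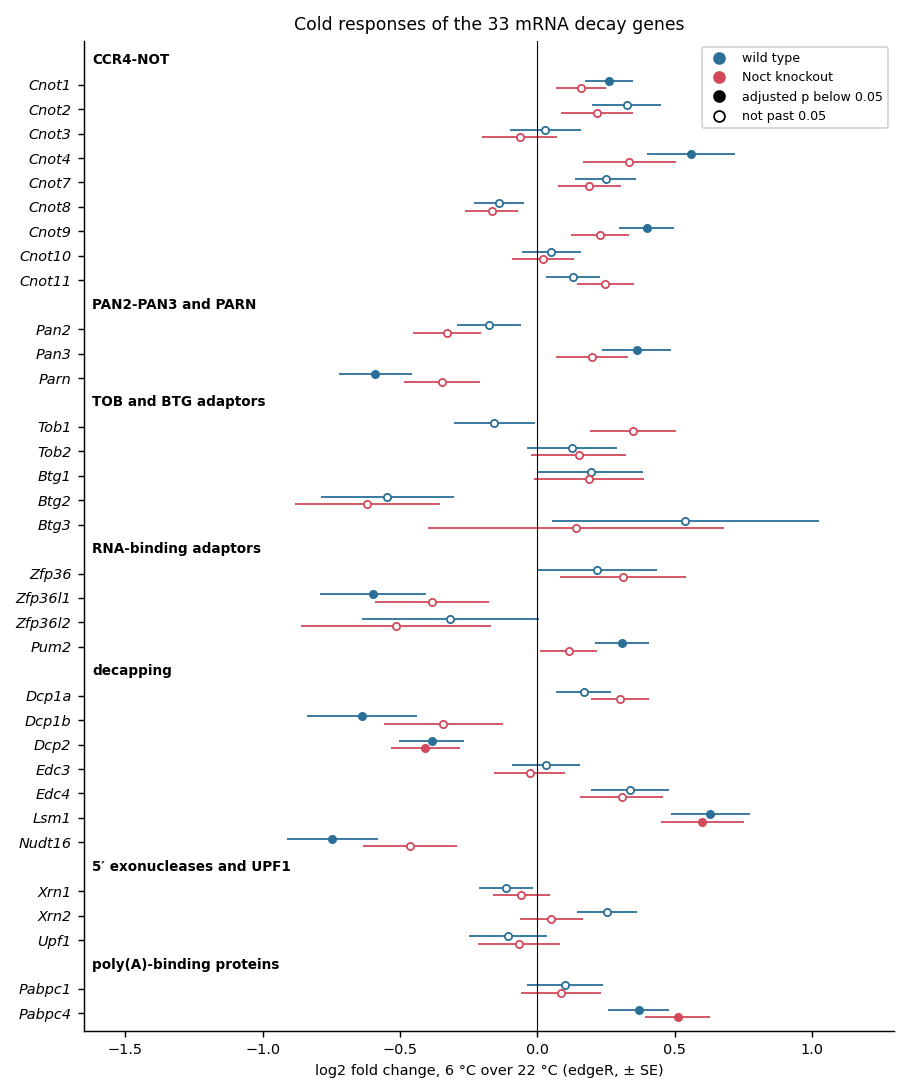
Log2 fold change in the cold (6 °C over 22 °C, x axis) of each of the 33 genes from edgeR, with bars of 1 SE, blue for wild type and red for knockout; filled points have an adjusted p below 0.05. Pabpc4, Lsm1 and Dcp2 are filled in both genotypes, and Tob1 has point estimates of opposite sign (-0.16 and 0.35).

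Genotype by itself gave 0 calls among the members at 22 °C and at 6 °C by edgeR, and 0 by DESeq2. At an unadjusted p below 0.05, edgeR gave 0 of 33 members at 22 °C (3.89% of all tested genes) and 3 of 33 at 6 °C (3.15% of all tested genes). The background of calls was 0.016% of all tested genes at 22 °C and 0.04% at 6 °C (0.032% lower). Groups of the 2 genotypes did not overlap for 2 members at 22 °C (Nudt16 higher and Cnot11 lower in knockout), against 4.22% of all tested genes, and for 1 member at 6 °C (Nudt16 higher), against 1.04%. Nudt16 averaged 2.77 ± 0.218 CPM in WR (SD, n = 4) and 3.51 ± 0.298 in KR (n = 4), and 1.64 ± 0.336 in WC (n = 5) and 2.55 ± 0.306 in KC (n = 4). The genotype difference as knockout minus wild type was 0.37 ± 0.18 at 22 °C (p 0.0568) and 0.65 ± 0.19 at 6 °C (p 0.00261), and the adjusted p was 0.998 and 0.999 (edgeR). The other members under 0.05 before adjustment at 6 °C were Parn (0.42 ± 0.15, p 0.0111, adjusted p 0.999) and Cnot3 (-0.32 ± 0.14, p 0.0366, adjusted p 0.999). Sex is unevenly spread over the genotypes (2 of 9 wild types and 6 of 8 knockouts are male), and the sex term of the model called 0 of the 33 members by edgeR (2 of 33, 6.06%, at an unadjusted p below 0.05, against 5.53% of all tested genes). In KR and in KC the only female library carries the number 1. KR1 was the highest of its group for 12 of the 33 members, among them Btg2, Zfp36 and Zfp36l1. KC1 was the lowest of its group for Zfp36l1, and KC2 exceeded it for Btg2 and Zfp36.

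Noct and other genes of mRNA decay were read from 8 lists beside the members. The background for the counts of each list was 14.3% of all tested genes higher and 13.3% lower in wild type in the cold. In knockout it was 11.6% higher and 10% lower. In the list of Noct and the CCR4-type nucleases, 4 of 6 genes changed in wild type in the cold, 2 higher and 2 lower. In knockout 0 of 6 were called by edgeR (3 at an unadjusted p below 0.05, against 33.8% of all tested genes). Only the 3 wild-type calls with the largest changes are named. Noct rose in wild type (1.33 ± 0.44, adjusted p 0.0332), Pde12, which encodes a phosphodiesterase that removes poly(A) from mitochondrial RNAs, rose (0.48 ± 0.14, adjusted p 0.0208), and Angel1, a CCR4-type family gene, fell (-1.04 ± 0.32, adjusted p 0.0232). The rise of Noct did not pass without WR1, WR2, WR3, WC1, WC2 or WC5 (adjusted p 0.0503 to 0.0925), that of Pde12 without WR2 (adjusted p 0.0661) and the fall of Angel1 without WR4, WC1 or WC3 (adjusted p 0.0538 to 0.0846). The log2 difference of Noct, knockout minus wild type, was -3.57 ± 0.53 at 22 °C (adjusted p 0.0200) and -4.11 ± 0.54 at 6 °C (adjusted p 0.00218). The call at 22 °C did not pass without WR2, WR4, KR1 or KR2 (adjusted p 0.0512 to 0.289), and the difference there was -4.48 without KR3, the highest KR library.

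RNA-binding regulators of mRNA stability other than the members were the list with most calls by number, though not by share (4 of 6 in the list of Noct and the CCR4-type nucleases in wild type), with 10 of 19 higher and 2 lower in wild type (median log2 change 0.39) and 7 higher and 2 lower in knockout (median 0.33). Cpeb4, which encodes a cytoplasmic polyadenylation element binding protein, went from 61.5 ± 15.6 CPM in WR (SD, n = 4) to 149 ± 42.1 in WC (n = 5), and from 45.5 ± 2.65 in KR (n = 4) to 136 ± 48.7 in KC (n = 4). It rose by 1.32 ± 0.20 in wild type (adjusted p 0.000178) and 1.55 ± 0.21 in knockout (adjusted p 0.000105). Samd4, the gene of the mammalian Smaug protein, rose by 0.78 ± 0.20 (adjusted p 0.00897) and 1.23 ± 0.22 (adjusted p 0.000745). Zc3h12a, the gene of the endoribonuclease Regnase-1, fell in both (-1.17 ± 0.19, adjusted p 0.000375, and -1.09 ± 0.21, adjusted p 0.00136). All 3 genes passed in both genotypes under all 27 alternatives.

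Partners of decapping and P-bodies gave 2 higher and 1 lower of 17 in wild type (median -0.17) and 1 higher and 3 lower in knockout (median -0.21). Patl1, whose product links deadenylation to decapping, rose by 0.62 ± 0.12 in wild type (adjusted p 0.00112) and 0.62 ± 0.12 in knockout (adjusted p 0.00196). Dcps, the scavenger enzyme for cap remnants, fell, with a log2 change of -0.65 ± 0.21 in wild type (adjusted p 0.0312) and -1.02 ± 0.23 in knockout (adjusted p 0.00422). The wild-type call of Dcps did not pass without WR1, WR4, WC1, WC2 or WC3 (adjusted p 0.0531 to 0.0958). Pnrc1 rose in wild type (0.62 ± 0.22, adjusted p 0.0422), but not without WR1, WR2, WR3, WR4, WC1, WC2, WC3 or WC5 (adjusted p 0.0529 to 0.106). Lsm3, a subunit of the LSM ring, fell in knockout (-0.47 ± 0.15, adjusted p 0.0322), but not without KR1, KR3, KR4, KC1 or KC2 (adjusted p 0.0706 to 0.126).

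Nonsense-mediated decay gave 4 higher and 1 lower of 13 in wild type (median 0.21) and 6 higher in knockout (median 0.25). Smg8, which encodes a regulator of the SMG1 kinase, rose by 0.57 ± 0.12 in wild type and 0.57 ± 0.13 in knockout (adjusted p 0.00238 and 0.00456). The exon junction gene Rbm8a rose by 0.85 ± 0.13 in wild type (adjusted p 0.000261) and 0.43 ± 0.14 in knockout (adjusted p 0.0352), the latter not without KR2, KR3, KC2 or KC3 (adjusted p 0.0529 to 0.123). Genes that bind or make poly(A) tails gave 4 of 13 higher in wild type and 3 in knockout. In this list 0 were lower in either genotype, against 13.3% and 10% of all tested genes. Papd5, a non-canonical poly(A) polymerase gene, rose by 0.75 ± 0.11 in wild type (adjusted p 0.000205) and 0.64 ± 0.12 in knockout (adjusted p 0.00120). Zcchc6, a uridylyltransferase gene, rose by 0.50 ± 0.12 and 0.38 ± 0.12 (adjusted p 0.00452 and 0.0358), and Papola, the canonical polymerase gene, by 0.36 ± 0.11 and 0.32 ± 0.11 (adjusted p 0.0178 and 0.0469). In knockout the rise of Zcchc6 did not pass without KR1, KR2, KR3, KC1 or KC3 (adjusted p 0.0503 to 0.124) and that of Papola without WC1, WC2, KR1, KR2, KR3, KC2 or KC3 (adjusted p 0.0507 to 0.146). The wild-type rise of Papola did not pass without WR3 (adjusted p 0.0511).

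The RNA exosome and SKI genes gave 2 higher and 1 lower of 16 in wild type and 1 lower in knockout. Exosc8, an exosome ring subunit gene, fell in both (-0.77 ± 0.19, adjusted p 0.00617, and -1.10 ± 0.20, adjusted p 0.000998). Dis3, the exosome nuclease gene, rose in wild type (0.46 ± 0.17, adjusted p 0.0471), but not without WR1, WR3, WR4, WC1, WC3, KR1, KR3, KC1 or KC2 (adjusted p 0.0502 to 0.125). Wdr61, a SKI complex subunit gene, rose as well (0.33 ± 0.10, adjusted p 0.0220), but not without WR2, WR3, WR4 or WC3 (adjusted p 0.0542 to 0.0586). Genes of miRNA silencing gave 1 higher and 3 lower of 7 in wild type and 1 of each in knockout. The Argonaute gene Ago1 fell, with a log2 change of -0.58 ± 0.16 in wild type (adjusted p 0.0112) and -0.60 ± 0.17 in knockout (adjusted p 0.0159), the latter not without KR1, KR2 or KC2 (adjusted p 0.0537 to 0.0543). Ago2 rose by 0.38 ± 0.13 and 0.44 ± 0.13 (adjusted p 0.0315 and 0.0234), but not without WR1, WR4, WC2 or WC5 (adjusted p 0.0692 to 0.09997) in wild type and KR4 or KC1 (adjusted p 0.0665 to 0.0679) in knockout. Ago4 fell in wild type (-0.65 ± 0.18, adjusted p 0.0134), but not without WR2 (adjusted p 0.0659).

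**Figure D4:**
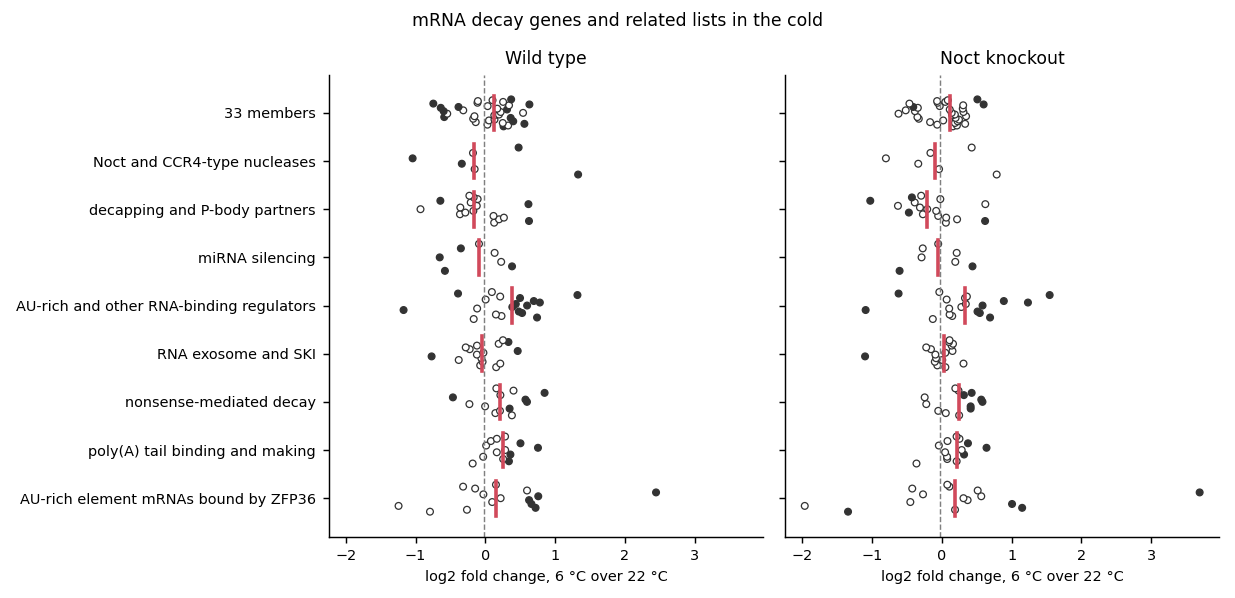
Log2 fold change in the cold (x axis) of the 33 members (top row) and of each tested gene of the 8 other lists, in wild type and in knockout. Filled points have an adjusted p below 0.05, the red bar is the list's median and the dashed line is the median of all tested genes. The list of RNA-binding regulators has the highest median in both panels, 0.39 and 0.33.

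Short-lived mRNAs with AU-rich elements that ZFP36 proteins bind (15 of 25 tested, a list that holds Zfp36 itself) gave 5 higher and 0 lower in wild type, with 6 of 15 at an unadjusted p below 0.05 (39.6% of all tested genes), and 3 higher and 1 lower in knockout. Plk3, a stress-induced kinase gene, rose by 2.44 ± 0.46 in wild type and 3.69 ± 0.51 in knockout (adjusted p 0.00111 and 0.000124). Dusp1, a MAP kinase phosphatase gene, rose by 0.72 ± 0.24 and 1.15 ± 0.25 (adjusted p 0.0330 and 0.00377), in wild type not without WR3, WR4, WC1, WC2 or WC5 (adjusted p 0.0547 to 0.0995). Nfkbia, the gene of the NF-κB inhibitor, rose in wild type (0.76 ± 0.22, adjusted p 0.0153). Ier3 fell in knockout (-1.34 ± 0.45, adjusted p 0.0419), but not without WR2, WR3, WR4, WC2, WC3, WC5, KR2, KR3, KC1, KC2, KC3 or KC4 (adjusted p 0.0503 to 0.316); without KR2 the log2 change itself was -0.56. Over the other 7 lists together, 25 of 91 tested genes were higher and 10 lower in wild type (38.5% called) and 18 higher and 7 lower in knockout (27.5% called), beside the 27.6% and 21.6% over all tested genes.

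With library totals the wild-type rises of Noct, Pde12, Pnrc1, Ago2, Dis3, Wdr61, Papola and Dusp1 and the knockout rises of Ago2 and Papola did not pass (adjusted p 0.0669 to 0.404, edgeR). Fitted on the compared groups alone, the wild-type call of Dcps and the knockout calls of Lsm3, Ago2, Rbm8a, Zcchc6, Papola and Ier3 did not pass (adjusted p 0.0543 to 0.176), nor did the genotype difference of Noct at 22 °C (adjusted p 0.579).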

How the data were processed

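The data are mRNA sequencing libraries of brown fat from 17 mice. The authors deposited a table of raw read counts per gene symbol and a table of RPKM values (reads scaled to gene length and library total). The submitters' processing notes name the tools STAR and HTSeq and the builds mm10 and GRCm38.p6; versions, annotation and strand setting are not given in the sources used here. In 8558 genes, counts scaled to library total and divided by the deposited RPKM gave a constant length per gene over the 17 libraries (relative spread at most 3.03e-15). These implied lengths were not compared with annotated ones. The RPKM values served only to set levels between genes.

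Differential expression was fitted on the deposited counts with edgeR 4.0.16 (R 4.3.3): filterByExpr, TMM scaling, a quasi-likelihood fit with a mean per group and labelled sex (12 residual degrees of freedom), and Benjamini-Hochberg adjustment over all 12486 tested genes at 0.05. The 5 comparisons were cold in each genotype, genotype at each temperature, and the difference of the cold responses. Libraries are grouped by label, and replicates are different animals; no 2 replicates of a group agreed within sampling noise (lowest chi-square per degree of freedom 22.4). The procedure was tested on simulated counts. Totals ran from 18410748 to 47598200 counts a library, and the reads carry no stated molecular identifiers.

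The members, gene lists, marker lists and motifs were chosen with earlier results of these data known, so their counts are descriptions and carry no test of their own. Named pathway genes were up to 3 genes per list and cold comparison with the largest change among those past the threshold. Not every gene the rule took is reported here. Alternatives were library totals, DESeq2 size factors, DESeq2 1.42.0, other low-count filters, other covariates, the replicate number as a block, the compared groups alone, and each library left out, 27 fits in all (10 settings and 17 left-out libraries). Their extension to the named pathway genes was added after the data had been seen. Gene positions and exon overlaps are from GENCODE vM21 on GRCm38, in which exons of 5 members overlap a tested gene on the other strand (Btg3 with Cxadr, Cnot3 with Leng1, Cnot7 with Zdhhc2, Cnot9 with Usp37, Edc3 with Clk3). Of 120 other pathway genes listed, 119 were in the table. Figures were drawn with matplotlib 3.10.9 in Python 3.11.15.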

Additional observations from a re-analysis of the deposited data

Results flagged for a closer look

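In each gene and group the highest or lowest library was compared with the rest by Dixon's ratio. It stood apart in 10 of 132 sets of 4 or 5 libraries, where chance gives about 1 in 20 (6.6 sets).

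Cnot4 was at 19.6 CPM in WR2 against 14.8 to 15.5 in the other WR libraries, and at 25.5 CPM in KC3 against 19.0 to 19.9 in the other KC libraries. Cnot9 was low in WC4, at 14.8 CPM against 16.8 to 17.4. Cnot10 was high in WC1, at 18.4 CPM against 13.9 to 15.1, and so was Pan2, at 19.7 CPM against 15.1 to 16.3. Btg2 was at 24.9 CPM in KR1 against 6.37 to 9.46 in the other KR libraries. KC1 was low in Zfp36l1, at 16.4 CPM against 22.9 to 23.5, and high in Zfp36l2, at 91.0 CPM against 37.6 to 39.4. Dcp1a was at 12.8 CPM in KR3 against 10.1 to 10.5. Upf1 was low in KR4, at 13.8 CPM against 21.8 to 23.0. KR1 and KC1 are the only libraries of their groups labelled female, and the part of sex in these values cannot be told apart from that of the animal.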

How the results depend on the processing

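Nudt16, Parn and Lsm1 in wild type and Lsm1 and Pabpc4 in knockout passed under all 27 alternatives, and no called member reversed in any. Replicate numbers are not stated to mark a shared litter or day, and the main fit did not pair by them. Of 16 same-numbered pairs 7 had correlated deviations over 0.1 (r from -0.43 to 0.49), and 6 libraries correlated best with their own number. Such correlations cannot decide whether same-numbered animals shared a litter or day. With the replicate block and sex, 7 members were called in wild type in place of 12, and with the block without sex 9; 0 and 1 genes were called between genotypes at 22 °C in place of 2. Leaving out 1 library gave 6 to 14 members in wild type (6 without WR4, 7 without WR1 or WC3, 14 without WC4), 2 to 4 in knockout, 2605 to 3872 genes in wild type, 1961 to 2834 in knockout, 1 to 3 between genotypes at 22 °C and 3 to 5 at 6 °C. With only the groups compared, 1589 genes were called in knockout in place of 2697, 0 between genotypes at 22 °C and 3 at 6 °C, a fit with fewer libraries. Between genotypes at 22 °C, DESeq2 called 10 genes and the fit without sex 4; at 6 °C, where the count was 5, DESeq2 called 12, library totals 3 and sex with age 3. The cause was not tested. At 4 or 5 animals a group, the SE of members' fold changes limits what can be called, most of all for Btg3 with 2 to 14 counts a library.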
